A study of Mus musculus with 7 samples.

Results

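The genes described here are 35 interferon-induced genes of the mouse, measured in dorsal skin RNA. The members were chosen by name, as genes known to be induced by interferons, and sorted into 5 role groups: 10 antiviral genes of the Ifit, Mx and Oas families, 8 genes of the type induced mainly by interferon gamma, 6 nucleic acid sensors and transcription factors, 3 genes of the ISG15 system and 8 other effectors. The list was drawn up with earlier results of these data known, so counts over the members describe them and are no independent test. Of the 35 genes, 34 had a probe and 33 were tested among 17083 genes in all. Xaf1 had no probe under its name, and Usp18, whose probe was marked as uneven on 1 array, is given apart. The arrays name 4 of the genes by older symbols, Gbp3 as Gbp4, Irgm1 as Irgm, Irf9 as Isgf3g and Cmpk2 as Tyki.

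The mice were male HR-1 animals, a hairless strain, aged 5 weeks at the start of feeding. GC-fed mice ate an AIN-93G rodent diet with glucosylceramide (GC), a sphingolipid that carries a sugar on ceramide, and control-fed mice ate AIN-93G without it. After-SDS skin came from 14 days of diet and had been treated daily for 2 days, 5 minutes at a time, with 10% sodium dodecyl sulfate (SDS), a detergent that damages the skin barrier, while before-SDS skin came from 12 days of diet and had no SDS. Each 2-colour array held 1 GC-fed and 1 control-fed sample, which gave 4 samples per diet after SDS and 3 per diet before SDS. The labels call the replicates biological and do not say whether each was 1 animal or a pool.

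Interferons are secreted proteins that bind receptors on the same or on neighbouring cells. Type I interferons act through the kinases Jak1 and Tyk2 and a complex that holds Stat2 and Irf9, which binds the interferon-stimulated response element (ISRE) of target genes, and interferon gamma acts mainly through the gamma-activated site (GAS). The induced genes block viral replication, sense foreign nucleic acids, and make and load the peptides that major histocompatibility complex class I molecules show to T cells. In skin, keratinocytes, fibroblasts and immune cells can all express them.

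The promoters of 9 members are printed because they carry, or lack, the letters of these 2 elements. Each is the 250 bases before a transcript start, 5′ to 3′ on the strand of the gene, from RefSeq on build GRCm38.p6. Capitals mark the core of an ISRE, written as GAAA, any 2 bases and GAAA and searched on both strands, and TTCNNNGAA, the core of a GAS, which reads the same on both strands. Oasl2, Psmb8, Irf9, Trim25 and Bst2 are the brightest member of their role group with a promoter in the table, and Tap1 was added to them. Isg15, Oas1a and Gbp2 were chosen after their values were seen.
Isg15 (chr4:156200819-156201068, minus strand): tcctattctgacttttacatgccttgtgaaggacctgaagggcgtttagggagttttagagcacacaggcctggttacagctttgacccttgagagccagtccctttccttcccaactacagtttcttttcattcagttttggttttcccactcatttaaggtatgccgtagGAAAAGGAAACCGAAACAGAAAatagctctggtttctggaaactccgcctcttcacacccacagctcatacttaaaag
Oas1a (chr5:120907526-120907775, minus strand): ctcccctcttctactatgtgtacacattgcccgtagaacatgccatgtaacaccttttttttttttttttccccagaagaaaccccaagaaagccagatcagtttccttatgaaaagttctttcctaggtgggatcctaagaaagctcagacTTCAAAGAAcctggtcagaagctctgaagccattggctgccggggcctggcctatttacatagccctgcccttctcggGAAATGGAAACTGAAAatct
Bst2 (chr8:71537473-71537722, minus strand): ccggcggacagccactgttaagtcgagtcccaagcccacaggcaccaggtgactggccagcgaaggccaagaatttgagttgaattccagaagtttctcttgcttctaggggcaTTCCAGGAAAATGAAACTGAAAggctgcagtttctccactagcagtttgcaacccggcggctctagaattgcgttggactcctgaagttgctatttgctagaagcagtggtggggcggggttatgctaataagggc
Gbp2 (chr3:142620413-142620662, plus strand): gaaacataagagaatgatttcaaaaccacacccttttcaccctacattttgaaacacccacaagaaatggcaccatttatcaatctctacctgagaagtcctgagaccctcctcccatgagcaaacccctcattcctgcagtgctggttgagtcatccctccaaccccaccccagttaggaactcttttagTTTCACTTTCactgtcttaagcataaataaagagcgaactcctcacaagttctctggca
Psmb8 (chr17:34197945-34198194, plus strand): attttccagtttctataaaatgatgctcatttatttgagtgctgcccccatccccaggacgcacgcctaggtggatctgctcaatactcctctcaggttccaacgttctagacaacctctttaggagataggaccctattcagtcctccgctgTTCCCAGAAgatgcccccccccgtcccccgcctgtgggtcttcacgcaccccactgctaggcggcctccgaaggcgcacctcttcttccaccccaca
Tap1 (chr17:34187306-34187555, plus strand): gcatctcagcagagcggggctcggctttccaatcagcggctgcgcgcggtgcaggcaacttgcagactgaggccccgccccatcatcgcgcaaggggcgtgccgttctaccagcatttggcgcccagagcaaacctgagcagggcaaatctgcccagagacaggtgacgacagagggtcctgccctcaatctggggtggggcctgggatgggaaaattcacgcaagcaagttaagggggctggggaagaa
Oasl2 (chr5:114896684-114896933, plus strand): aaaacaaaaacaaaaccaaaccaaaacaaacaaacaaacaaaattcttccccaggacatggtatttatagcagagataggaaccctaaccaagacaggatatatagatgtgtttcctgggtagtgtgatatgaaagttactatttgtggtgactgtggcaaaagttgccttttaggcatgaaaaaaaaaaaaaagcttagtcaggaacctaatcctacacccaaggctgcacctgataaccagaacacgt
Irf9 (chr14:55603735-55603984, plus strand): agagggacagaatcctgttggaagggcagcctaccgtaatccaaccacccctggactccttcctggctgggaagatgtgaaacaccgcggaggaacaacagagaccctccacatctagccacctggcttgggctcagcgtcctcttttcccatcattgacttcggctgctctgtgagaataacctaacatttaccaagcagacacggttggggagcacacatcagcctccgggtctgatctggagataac
Trim25 (chr11:88999153-88999402, plus strand): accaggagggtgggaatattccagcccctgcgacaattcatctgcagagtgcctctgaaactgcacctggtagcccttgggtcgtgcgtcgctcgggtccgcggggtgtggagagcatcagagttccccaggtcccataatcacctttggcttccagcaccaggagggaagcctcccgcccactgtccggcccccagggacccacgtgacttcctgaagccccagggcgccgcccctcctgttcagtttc

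The Isg15 promoter holds 3 ISRE cores that overlap each other, the first of which begins 78 bases before the start. In Oas1a, 2 overlapping ISRE cores begin 20 and 14 bases before the start and a GAS core begins at 98 bases. Bst2 has a GAS core at 136 bases that runs into 2 ISRE cores at 130 and 124 bases. Gbp2 has 1 ISRE core on the other strand at 59 bases, and Psmb8 has 1 GAS core at 97 bases. Neither string was in the windows of Tap1, Oasl2, Irf9 and Trim25, which says only that these letters are not in those 250 bases. The Tap1 and Psmb9 genes lie head to head on chromosome 17, and 225 bases of their windows are the same sequence on opposite strands, so the printed Tap1 window stands for both.

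Of the 35 members, 27 had a promoter in the table; Zbp1, Iigp1, Oas2, Usp18, Rtp4, Mx1, Mx2 and Parp14 had none. The ISRE core was found in 12 of the 27 (44.4%), against 3.46% of all 27025 genes in the table, and the GAS core in 6 of the 27 (22.2%), against 8.13%. Bst2, Igtp and Oas1a had both. The ISRE core was found in 4 of 7 antiviral promoters and in 4 of 7 promoters of the interferon gamma type. A match is a description of letters and not a site shown to be bound.

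Most members gave a clear signal. Their probes had mean log2 intensities between 7.41 (Ifi44) and 12.31 (Psmb8), with a median of 9.74 against 9.51 over all genes, and 30 of the 33 were well above background in all 14 channels. Mx1 was well above background in 7 channels, Oas3 in 4 and Ifi44 in 3. Antiviral probes were dimmer, at a median of 8.58, than those of the interferon gamma type, at 10.69, and levels of different probes are not compared with each other. Across genes, the ratios of after-SDS array 4 ran against those of after-SDS arrays 1, 2 and 3, at r = -0.50, -0.62 and -0.30, although arrays 3 and 4 carry the diets in the same dyes by their labels. Directions follow the labels throughout, and the counts and medians of the genes and lists after SDS are also given without array 4, which was singled out because it opposed the others. All after-SDS arrays shared 1 slide and scan and all before-SDS arrays another.

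The first comparison asks whether dietary GC changed interferon-induced genes in skin that had been exposed to SDS. Every tested member had a fitted ratio below 0, that is lower in GC-fed skin, with Bst2, an antiviral membrane protein, lowest at -0.60 (SE 0.27) on the log2 scale. In whole skin, fewer cells of a type and less RNA per cell cannot be told apart. The median over the 33 members was -0.22, against -0.00 over all 17083 genes, of which 50.4% were below 0. The interferon gamma type was at a median of -0.34, the other effectors at -0.33, the ISG15 system at -0.19, the sensors and factors at -0.16 and the antiviral genes at -0.14. Without array 4 their order differed, with the other effectors at -0.58, the interferon gamma type at -0.42, the ISG15 system at -0.32, the antiviral genes at -0.28 and the sensors and factors at -0.23. On after-SDS arrays 1 to 4 the scanner's processed signals, an alternative chosen after seeing the data, gave antiviral medians of -0.46, -0.69, -0.57 and 0.44. The interferon gamma type was then at -0.64, -0.24, -0.57 and -0.02. No member passed limma's test at an adjusted p below 0.05 (0 of 33, against 0% of all genes), with a lowest adjusted p of 0.835. At an unadjusted p under 0.05 there were 8 members, all lower in GC-fed skin, against 2.79% of all genes.

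The ratios differed between arrays. The medians over the members were -0.29, -0.33, -0.46 and 0.19 on after-SDS arrays 1 to 4. On array 1, 31 of 33 members were lower in GC-fed skin (all genes 58.6%), on array 2 27 (53.4%), on array 3 33 (47.7%) and on array 4 7 (46.2%). On array 4, 26 members were higher in GC-fed skin, against 53.8% of all genes, and 26 were lower on all of arrays 1 to 3, against 21.8%. The pattern of a lower value on arrays 1 to 3 and a higher value on array 4 was shown by 22 of 33 members, against 17.2% of all genes. Iigp1, Psmb8, Psmb9 and Irf7 were lower on 4 of 4 arrays, or 4 of 33 members against 4.62% of all genes. Without array 3 the median over the members was -0.09, with 24 of 33 below 0.

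**Figure D1:**
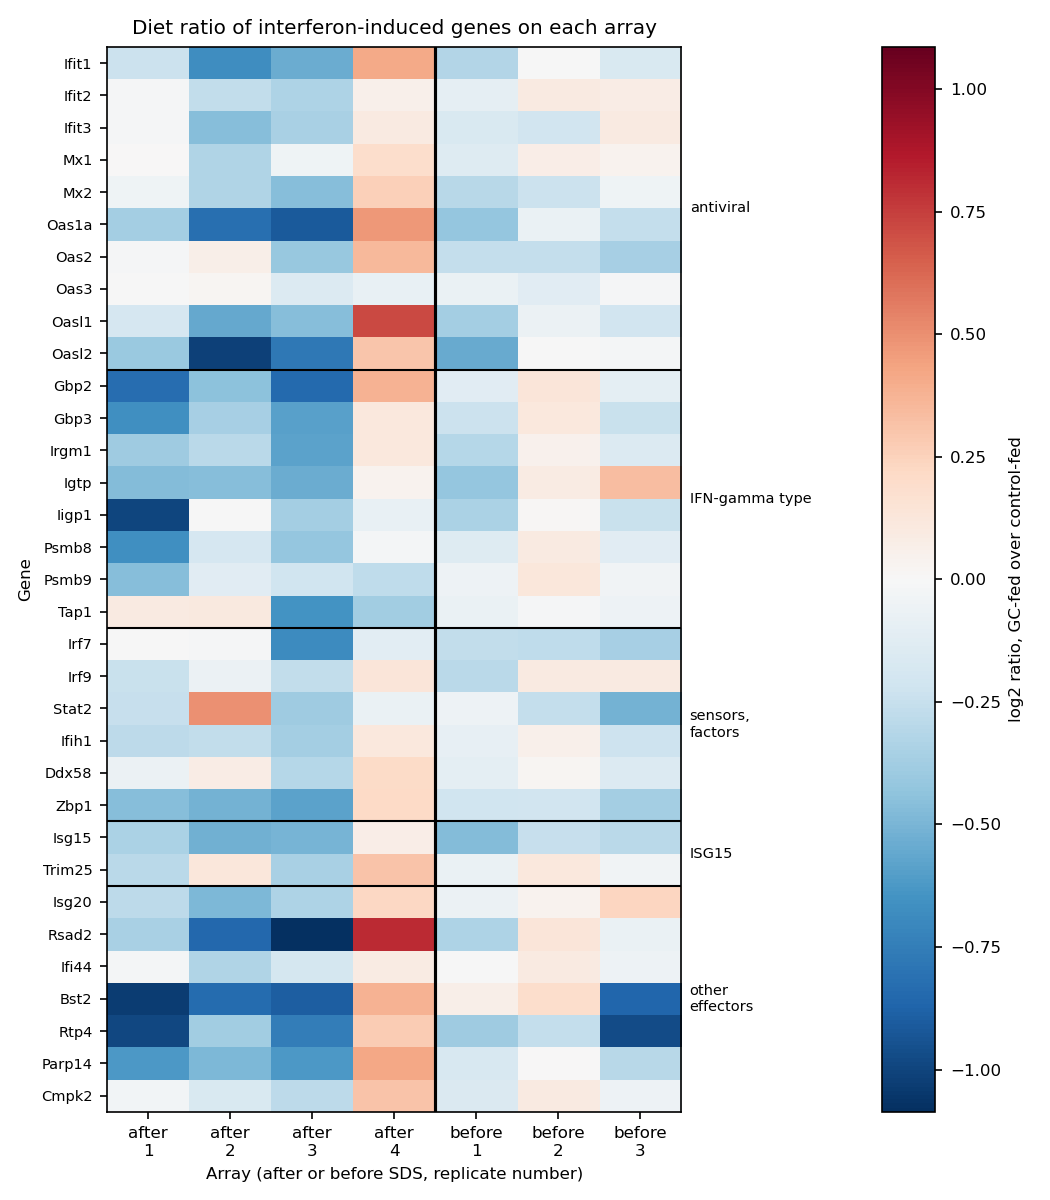
Log2 diet ratio (GC-fed over control-fed) for each of 33 interferon-induced genes (rows, in 5 role groups) on each of 7 arrays (columns, after-SDS arrays on the left), with blue for lower and red for higher in GC-fed skin. All 33 genes are blue on after-SDS array 3 and 26 are red on after-SDS array 4.

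The second comparison asks the same of skin before SDS. Of the 33 members, 29 were below 0 with a median of -0.16, against 51.2% of all genes and a median of -0.00. Rtp4, a chaperone of cell surface receptors, was lowest at -0.57 (SE 0.25), and Isg15, a ubiquitin-like protein, was at -0.38 (SE 0.12). No member passed (0 of 33, against 0% of all genes, every adjusted p at 1), and 1 member, Isg15, was lower at an unadjusted p under 0.05, against 0.158% of all genes. By array, the medians over the members were -0.17, 0.02 and -0.12, with 32, 14 and 27 of 33 members lower on arrays 1, 2 and 3, against 56.5%, 47% and 44.3% of all genes. On 3 of 3 arrays 13 members were lower, against 9.6% of all genes.

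With both SDS groups weighted equally, all 33 members were below 0 with a median of -0.20, against 49.9% of all genes and a median of 0.00. Isg15 was at -0.35 (SE 0.08), Rtp4 at -0.51 (SE 0.17) and Zbp1, a sensor of Z-form nucleic acids, at -0.31 (SE 0.10). None passed (0 of 33, against 0% of all genes, lowest adjusted p 0.997), and 10 members, all lower in GC-fed skin, were under an unadjusted p of 0.05, against 1.45% of all genes. The difference of the diet effects, after minus before SDS, was below 0 for 22 of 33 members with a median of -0.10, against 51.5% of all genes. Its sign rested on 1 array: without after-SDS array 3 the median was 0.08 with 11 of 33 below 0, and without array 4 it was -0.22 with 30 of 33. It was below 0 for 8 of 8 members of the interferon gamma type and for 5 of 10 antiviral members. These counts rest on 1 probe per gene. Of 16 members with several probes, 7 had probes that differed in sign: Irgm1, Ifit2, Mx1, Oas3, Ddx58, Ifi44 and Parp14. None passed for this difference (0 of 33, against 0%, every adjusted p at 1), and 0 members were under an unadjusted p of 0.05, against 1.21% of all genes, so the diet effects after and before SDS were not shown to differ.

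The antiviral genes include the oligoadenylate synthetases, enzymes that sense double-stranded RNA and activate RNase L. Oasl2, an oligoadenylate synthetase-like protein and the brightest of this group, had log2 intensities of 9.85, 9.64, 8.94 and 10.03 in GC-fed skin and 10.25, 10.66, 9.71 and 9.73 in control-fed skin after SDS. Its before-SDS levels were 9.26, 9.43 and 10.04 in GC-fed skin and 9.80, 9.44 and 10.06 in control-fed skin. The diets overlapped in both SDS groups, and the sample with the lowest level was GC-fed replicate 3 after SDS. The ratio within each array was -0.40, -1.02, -0.77 and 0.30 after SDS and -0.55, -0.01 and -0.02 before SDS, which gave -0.47 (SE 0.18) and -0.27 (SE 0.21).

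Oas1a, one of the synthetases, had 9.67, 9.32, 8.82 and 10.00 in GC-fed skin after SDS, against 10.05, 10.14, 9.73 and 9.53 in control-fed skin. Its levels before SDS were 9.06, 9.12 and 9.37 in GC-fed skin and 9.48, 9.20 and 9.63 in control-fed skin. GC-fed samples were lower on 6 of the 7 arrays, the exception being after-SDS array 4, and the diets overlapped. Ratios were -0.37, -0.82, -0.91 and 0.47 after SDS, for a fitted value of -0.41 (SE 0.21), and -0.42, -0.07 and -0.26 before SDS, for -0.30 (SE 0.24).

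For Oas2, another synthetase, GC-fed skin had 8.61, 8.77, 8.28 and 8.75 and control-fed skin 8.62, 8.71, 8.69 and 8.40 after SDS. Before SDS GC-fed skin had 8.45, 8.41 and 8.62 and control-fed skin 8.71, 8.66 and 8.98. Every GC-fed sample lay below every control-fed sample before SDS, while the diets overlapped after SDS. The fitted ratio was -0.00 (SE 0.12) after SDS, where the 2 probes of the gene differed in sign, and -0.28 (SE 0.14) before SDS.

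Oas3, the largest synthetase, was close to background, with 7.49, 7.60, 7.37 and 7.60 in GC-fed skin and 7.50, 7.58, 7.52 and 7.68 in control-fed skin after SDS. It had 7.22, 7.32 and 7.41 in GC-fed skin and 7.29, 7.45 and 7.43 in control-fed skin before SDS. It was well above background in 2 of 4 samples of each diet after SDS and in 0 of 3 before SDS. The diet ratio after SDS was -0.05 (SE 0.06). No diet ratio of Oas3 is given before SDS, where its values were not well above background. Those values are still part of the before-SDS counts, the group medians and the figure of diet ratios.

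Oasl1, a second synthetase-like protein, had 9.20, 8.86, 8.61 and 9.61 in GC-fed skin and 9.38, 9.41, 9.07 and 8.89 in control-fed skin after SDS. Its levels were 8.51, 8.81 and 9.01 in GC-fed skin and 8.88, 8.87 and 9.22 in control-fed skin before SDS. It was lower in GC-fed skin on 6 of 7 arrays, and its ratio of 0.72 on after-SDS array 4 was the highest of the antiviral genes there. Fitted ratios were -0.12 (SE 0.18) after SDS and -0.28 (SE 0.21) before SDS.

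Ifit2 binds viral RNA in the cytoplasm. After SDS it had 8.51, 8.46, 8.06 and 8.39 in GC-fed skin and 8.52, 8.73, 8.40 and 8.33 in control-fed skin, and before SDS 8.44, 8.46 and 8.72 in GC-fed skin and 8.54, 8.36 and 8.65 in control-fed skin. The diets overlapped in both SDS groups, with fitted ratios of -0.14 (SE 0.09) after SDS and 0.01 (SE 0.10) before SDS, where its probes differed in sign. Mx1, a dynamin-like GTPase that traps viral particles, had 7.60, 7.36, 7.34 and 7.61 in GC-fed skin and 7.60, 7.69, 7.39 and 7.42 in control-fed skin after SDS. The before-SDS levels of Mx1 were 7.43, 7.63 and 7.92 in GC-fed skin and 7.58, 7.56 and 7.89 in control-fed skin. These levels overlapped and were well above background in 3 of 8 after-SDS samples and 4 of 6 before-SDS samples. The remaining antiviral members, Ifit1, Ifit3 and Mx2, had fitted ratios between -0.26 and -0.14 after SDS and between -0.22 and -0.11 before SDS.

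The interferon gamma type holds subunits of the immunoproteasome, which cuts proteins into peptides for class I molecules, the transporter that brings these peptides into the endoplasmic reticulum, and GTPases that attack the vacuoles of intracellular microbes. Psmb8, a catalytic subunit of the immunoproteasome and the brightest member, had 11.97, 12.26, 12.05 and 12.47 in GC-fed skin after SDS, against 12.64, 12.44, 12.47 and 12.50 in control-fed skin. Before SDS it had 12.23, 12.27 and 12.21 in GC-fed skin and 12.37, 12.17 and 12.33 in control-fed skin. It was lower in GC-fed skin on 4 of 4 after-SDS arrays, by as little as 0.02 on array 4, and the diets overlapped in both SDS groups. The fitted ratio was -0.32 (SE 0.11) after SDS and -0.08 (SE 0.13) before SDS.

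Psmb9, the partner subunit, had 11.48, 11.74, 11.61 and 11.78 in GC-fed skin after SDS, against 11.95, 11.86, 11.82 and 12.06 in control-fed skin. Its levels before SDS were 11.95, 11.87 and 11.98 in GC-fed skin and 12.00, 11.75 and 12.02 in control-fed skin. After SDS every GC-fed sample lay below every control-fed sample, and Psmb9 was the only member to do so (1 of 33 members, against 1.15% of all genes). Ratios were -0.46, -0.12, -0.22 and -0.27 after SDS and -0.05, 0.12 and -0.03 before SDS. The fitted ratio of -0.27 (SE 0.07) after SDS had the smallest p of the 33 members but an adjusted p of 0.835, and before SDS it was -0.00 (SE 0.09).

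Igtp, an immunity-related GTPase, had 10.26, 10.24, 9.83 and 10.80 in GC-fed skin and 10.73, 10.70, 10.37 and 10.75 in control-fed skin after SDS. Before SDS it had 10.29, 10.33 and 11.00 in GC-fed skin and 10.71, 10.24 and 10.66 in control-fed skin. Ratios were -0.47, -0.46, -0.54 and 0.04 after SDS, near -0.5 on 3 arrays and near 0 on the fourth, and -0.42, 0.09 and 0.34 before SDS, with no common direction. Fitted values were -0.36 (SE 0.11) and -0.06 (SE 0.13).

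Tap1, a subunit of the peptide transporter, had 8.80, 8.57, 8.28 and 8.61 in GC-fed skin and 8.70, 8.46, 8.93 and 8.99 in control-fed skin after SDS. In before-SDS skin the levels were 9.17, 9.07 and 9.31 with GC and 9.24, 9.08 and 9.37 with control diet. The diets overlapped in both SDS groups, and after SDS Tap1 was higher in GC-fed skin on arrays 1 and 2 and lower on arrays 3 and 4. The fitted diet ratio was -0.20 (SE 0.10) after SDS and 0.01 (SE 0.12) before SDS. The other members of this type, Gbp2, Gbp3, Irgm1 and Iigp1, had ratios between -0.44 and -0.29 after SDS and between -0.23 and -0.08 before SDS; the 3 probes of Irgm1 differed in sign after SDS.

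The ISG15 system tags proteins with the ubiquitin-like Isg15. Isg15 itself had 9.63, 9.01, 8.90 and 9.61 in GC-fed skin after SDS, against 9.97, 9.53, 9.40 and 9.54 in control-fed skin. Before SDS it had 9.002, 9.01 and 9.15 in GC-fed skin, against 9.48, 9.26 and 9.44 in control-fed skin. The before-SDS diets did not overlap, as was also the case for Oas2, Stat2 and Rtp4 (4 of 33 members lower in GC-fed skin, against 2.92% of all genes), and the after-SDS diets did. No member had every GC-fed sample above every control-fed sample, after SDS (0 of 33, against 0.41% of all genes) or before SDS (0 of 33, against 2.65%). Isg15 was lower in GC-fed skin on 6 of 7 arrays, with ratios of -0.34, -0.52, -0.50 and 0.07 after SDS and -0.47, -0.25 and -0.30 before SDS. Trim25, a ubiquitin and ISG15 ligase, had 11.79, 11.86, 11.61 and 12.20 in GC-fed skin and 12.08, 11.73, 11.96 and 11.88 in control-fed skin after SDS. Before SDS Trim25 had 11.82, 11.86 and 11.84 in GC-fed skin and 11.89, 11.75 and 11.88 in control-fed skin, and its fitted ratios were -0.05 (SE 0.12) after SDS and -0.01 (SE 0.14) before SDS. Usp18, the protease that removes Isg15 from proteins, entered no test; its ratios were -0.08, 0.09, -0.50 and -0.12 after SDS and 0.09 and 0.08 on before-SDS arrays 1 and 2.

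**Figure D2:**
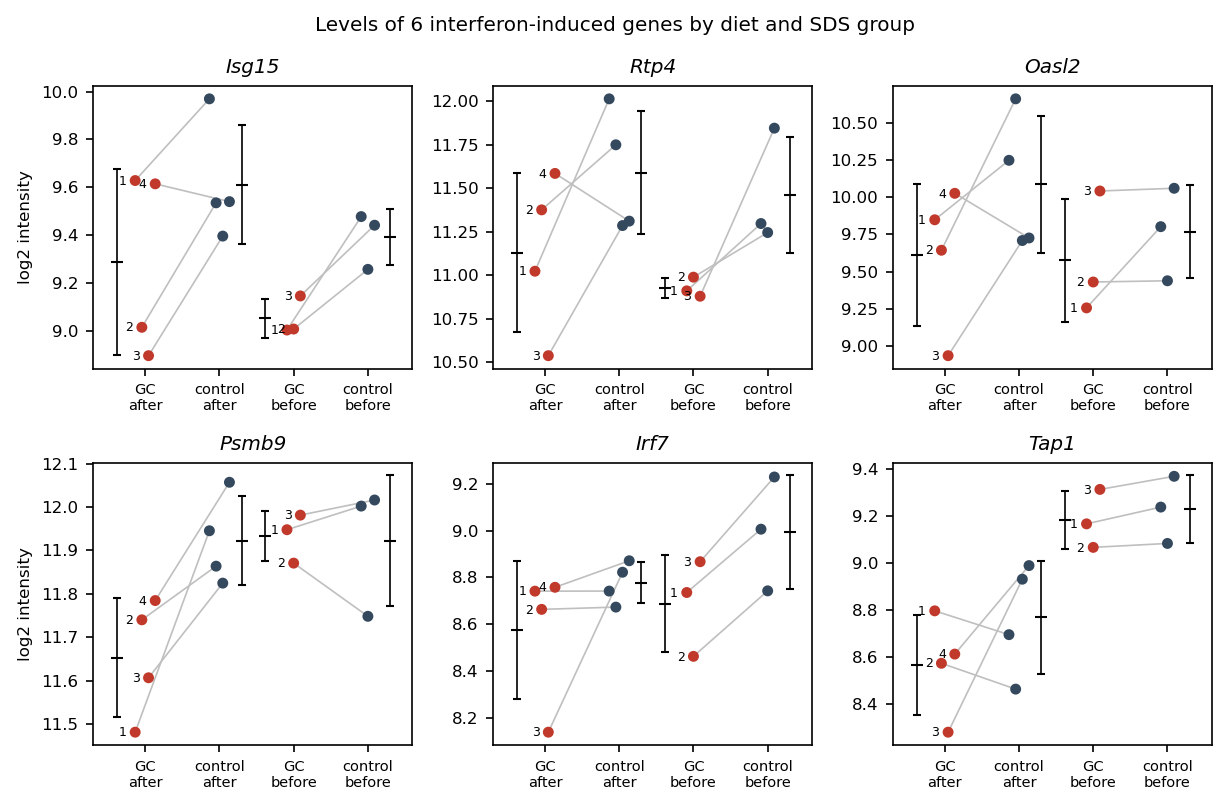
Normalized log2 intensity of 6 interferon-induced genes in each sample (GC-fed red, control-fed dark grey, numbered by replicate), with lines joining the 2 samples of an array and bars for the group mean and SD (n = 4 after SDS and 3 before SDS). Psmb9 separates the diets after SDS, Isg15 and Rtp4 separate them before SDS, and Tap1 is lower after SDS than before SDS in both diets.

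Among the transcription factors, Irf9, the DNA-binding partner of Stat2, had 10.24, 10.37, 10.18 and 10.58 in GC-fed skin and 10.49, 10.43, 10.44 and 10.45 in control-fed skin after SDS. Before SDS it had 10.31, 10.44 and 10.60 in GC-fed skin and 10.60, 10.35 and 10.51 in control-fed skin. The control-fed samples after SDS lay close together, with an SD of 0.02, the GC-fed samples spread around them, and fitted ratios were -0.11 (SE 0.09) after SDS and -0.07 (SE 0.10) before SDS. Stat2, its partner, had 10.12, 10.32, 9.89 and 10.26 in GC-fed skin and 10.37, 9.82, 10.28 and 10.33 in control-fed skin after SDS. Its levels before SDS were 9.95, 9.82 and 9.75 in GC-fed skin and 10.01, 10.08 and 10.26 in control-fed skin, where the diets did not overlap. After SDS the low control-fed replicate 2 gave a ratio of 0.50 on its array, with the other 3 below 0, and the fitted ratios were -0.05 (SE 0.13) after SDS and -0.22 (SE 0.15) before SDS.

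Irf7, which drives transcription of the type I interferon genes, had 8.74, 8.66, 8.14 and 8.76 in GC-fed skin and 8.74, 8.67, 8.82 and 8.87 in control-fed skin after SDS. Irf7 levels before SDS were 8.74, 8.46 and 8.87 in GC-fed skin and 9.01, 8.74 and 9.23 in control-fed skin. It was the only member that was lower in GC-fed skin on 7 of 7 arrays (1 of 33 members, against 0.544% of all genes), but 2 of the after-SDS ratios were within 0.01 of 0. On at least 6 of 7 arrays 14 members were lower, against 6.13% of all genes. Irf7 ratios were -0.00, -0.01, -0.68 and -0.11 after SDS and -0.27, -0.28 and -0.36 before SDS, for fitted values of -0.20 (SE 0.10) and -0.26 (SE 0.12).

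Zbp1, the Z-nucleic acid sensor, had 9.98, 9.89, 9.37 and 10.19 in GC-fed skin and 10.44, 10.40, 9.96 and 9.98 in control-fed skin after SDS. Its levels were 9.46, 9.44 and 9.67 in GC-fed skin and 9.68, 9.65 and 10.04 in control-fed skin before SDS. Ratios of -0.46, -0.51, -0.58 and 0.22 after SDS and -0.22, -0.21 and -0.37 before SDS put 6 of 7 arrays below 0, for fitted values of -0.33 (SE 0.13) and -0.29 (SE 0.16). Ddx58, also called RIG-I, senses RNA with an unmodified end. It had 8.58, 8.35, 8.22 and 8.68 in GC-fed skin and 8.64, 8.27, 8.53 and 8.47 in control-fed skin after SDS, and 8.24, 8.26 and 8.21 in GC-fed skin and 8.34, 8.24 and 8.36 in control-fed skin before SDS. The diets overlapped, with fitted ratios of -0.02 (SE 0.09) after SDS and -0.07 (SE 0.11) before SDS. Ifih1, the sensor of long double-stranded RNA, was at -0.20 (SE 0.09) after SDS and -0.10 (SE 0.11) before SDS, and its 2 probes differed in sign both times.

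Of the other effectors, Bst2 (tetherin) holds budding virus particles on the cell surface. It had 11.16, 11.04, 10.97 and 12.03 in GC-fed skin and 12.20, 11.88, 11.86 and 11.66 in control-fed skin after SDS. Bst2 levels before SDS were 11.28, 11.68 and 11.04 in GC-fed skin and 11.21, 11.48 and 11.89 in control-fed skin. Ratios on after-SDS arrays 1 to 3 lay between -1.04 and -0.84 and that on array 4 was 0.38, while before SDS array 3 alone was below 0, at -0.86, for a fitted value of -0.24 (SE 0.32). Rtp4 had 11.02, 11.38, 10.54 and 11.59 in GC-fed skin and 12.01, 11.75, 11.29 and 11.31 in control-fed skin after SDS. Before SDS its GC-fed levels of 10.91, 10.99 and 10.88 all lay below its control-fed levels of 11.30, 11.25 and 11.85. Ratios were -0.99, -0.37, -0.75 and 0.27 after SDS and -0.39, -0.26 and -0.97 before SDS, and fitted values were -0.46 (SE 0.21) and -0.57 (SE 0.25).

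Parp14 attaches ADP-ribose to proteins. It had 11.31, 11.57, 11.19 and 11.97 in GC-fed skin and 11.93, 12.06, 11.81 and 11.54 in control-fed skin after SDS, and 11.31, 11.37 and 11.45 in GC-fed skin and 11.48, 11.36 and 11.76 in control-fed skin before SDS. Its fitted ratio was -0.33 (SE 0.17) after SDS and -0.20 (SE 0.20) before SDS, but its 3 probes differed in sign after SDS and their mean gave -0.09. Isg20, an RNA exonuclease, had 9.86, 9.86, 9.72 and 10.25 in GC-fed skin and 10.14, 10.35, 10.06 and 10.03 in control-fed skin after SDS. Before SDS Isg20 had 9.82, 9.80 and 10.05 in GC-fed skin and 9.88, 9.76 and 9.81 in control-fed skin. The diets overlapped, at -0.22 (SE 0.10) after SDS and 0.02 (SE 0.12) before SDS. Rsad2 (viperin), Ifi44 and the mitochondrial nucleotide kinase Cmpk2 had ratios between -0.37 and -0.04 after SDS and between -0.16 and 0.00 before SDS. The value of 0.00 was that of Ifi44, which before SDS was well above background in 1 GC-fed sample and 0 control-fed samples. Probes of Cmpk2 and Ifit3 differed in sign after SDS, and those of Rsad2, Ifi44, Ifit3 and Mx1 before SDS.

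The antiviral genes and the interferon gamma type were set side by side on each array, since the antiviral families respond strongly to type I interferon and the other type mainly to interferon gamma. After SDS the interferon gamma type had medians of -0.57, -0.24, -0.56 and 0.01 on arrays 1 to 4, against -0.03, -0.40, -0.44 and 0.28 for the antiviral genes. Before SDS the medians were -0.19, 0.09 and -0.12 for the interferon gamma type and -0.28, -0.07 and -0.03 for the antiviral genes. The difference of the medians was -0.54, 0.16, -0.12 and -0.27 after SDS and 0.09, 0.16 and -0.08 before SDS, so neither class was the lower of the pair throughout. These differences depended on how the signals were processed, and which step made the difference was not tested. From the scanner's processed signals they were -0.18, 0.45, -0.00 and -0.45 after SDS and 0.39, 0.15 and -0.02 before SDS, and the antiviral median on after-SDS array 1 was -0.46 in place of -0.03, an alternative chosen after seeing the data.

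The members were also divided by whether the 250-base window held an ISRE core. After SDS the diet ratio had a median of -0.34 over the 12 members with the core and -0.17 over the 14 tested members without it. Before SDS the medians were -0.16 with the core and -0.06 without it. These are descriptions of the members with a promoter in the table, with ranges that overlapped (-0.60 to -0.05 with the core and -0.47 to -0.02 without it after SDS). For the difference of diet effects the medians were -0.11 with the ISRE core and -0.11 without it. Divided by the GAS core instead, the after-SDS medians were -0.34 over 6 members with it and -0.20 over 20 without it. Before SDS they were -0.07 with the GAS core and -0.11 without it, so a lower after-SDS median was not particular to the ISRE core.

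Leaving out after-SDS array 4 changed the calls. On the remaining 3 arrays 9 of 33 members fell in GC-fed skin after SDS, against 3.97% of all genes, and 0 rose, against 1.48%. They were Bst2 at -0.95 (SE 0.20, adjusted p = 0.0447), Rsad2 at -0.77 (SE 0.16, adjusted p = 0.0444), Gbp2 at -0.72 (SE 0.11, adjusted p = 0.0221), Oas1a at -0.71 (SE 0.13, adjusted p = 0.0334) and Oasl2 at -0.69 (SE 0.14, adjusted p = 0.0468). Parp14 was at -0.58 (SE 0.09, adjusted p = 0.0212), Zbp1 at -0.53 (SE 0.07, adjusted p = 0.015), Gbp3 at -0.53 (SE 0.11, adjusted p = 0.043) and Isg15 at -0.44 (SE 0.08, adjusted p = 0.0342). The median over the members became -0.35, with 33 of 33 below 0. Averaged over both SDS groups, Zbp1, Isg15 and Parp14 fell (3 of 33, against 1.18% of all genes), and 0 members passed before SDS (0% of all genes). With the sign of array 4 turned instead, 13 members fell after SDS, against 6.09% of all genes. Because the array was chosen for its direction, these calls are not independent of that choice.

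Markers of other cell types had ratios away from 0 on the same arrays. Of 20 macrophage and monocyte markers, 19 were tested (Ly6c2 was not), and all 19 had a fitted diet ratio below 0 after SDS, with a median of -0.47, and 18 before SDS, with a median of -0.28; 0 of them passed (0% of all genes). Their medians by array were -0.79, -0.68, -0.99 and 0.73 after SDS and -0.09, -0.11 and -0.38 before SDS, so they too were higher in GC-fed skin on after-SDS array 4; without that array their after-SDS median was -0.94 and 15 of 19 fell, against 3.97% of all genes. The summed intensity of these markers was 94679 to 293523 in GC-fed and 112859 to 309322 in control-fed skin after SDS, and 154720 to 190760 in GC-fed and 168958 to 200195 in control-fed skin before SDS. Keratinocyte markers ran the other way, with 12 of 12 above 0 and a median of 0.32 after SDS and 10 of 12 with a median of 0.15 before SDS, and 0 passed. Without array 4 their after-SDS median was 0.55 and 4 of 12 rose, against 1.48% of all genes. By array their medians were 0.56, 0.43, 0.59 and -0.30 after SDS and -0.04, 0.14 and 0.23 before SDS, and their summed intensity was 448237 to 990305 in GC-fed and 351515 to 675276 in control-fed skin after SDS. Markers of plasmacytoid dendritic cells, which can make much type I interferon, had 5 of 9 above 0 with a median of 0.01 after SDS, and T and NK cell markers 5 of 15 with a median of -0.04. Both lists held dim markers, which limits these medians. Spib, Ncr1 and Gzmb were well above background in 4 of 14 channels each, Klrb1c in 3 and Siglech in 9. Clec12a, Cd8a, Trac and Gzma were not tested. Neutrophil markers, with 6 of 12 tested, were at a median of -0.23 after SDS and by array at -0.21, -0.70, -0.97 and 0.97; without array 4 the median was -0.68 and 3 of 6 fell. The after-SDS medians were -0.14 for endothelial, -0.08 for dendritic and Langerhans, -0.05 for B and plasma cell and 0.09 for fibroblast markers. Without array 4 they were -0.20, -0.14, -0.14 and 0.03 in the same order, with 0 of 10 called, 1 of 11 lower, 1 of 6 lower and 2 of 10 higher. Without that array the plasmacytoid median was 0.00 with 1 of 9 higher, and the T and NK cell median -0.02 with 0 of 15 called. The part of these cells in the ratios of the interferon-induced genes was not tested.

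**Figure D3:**
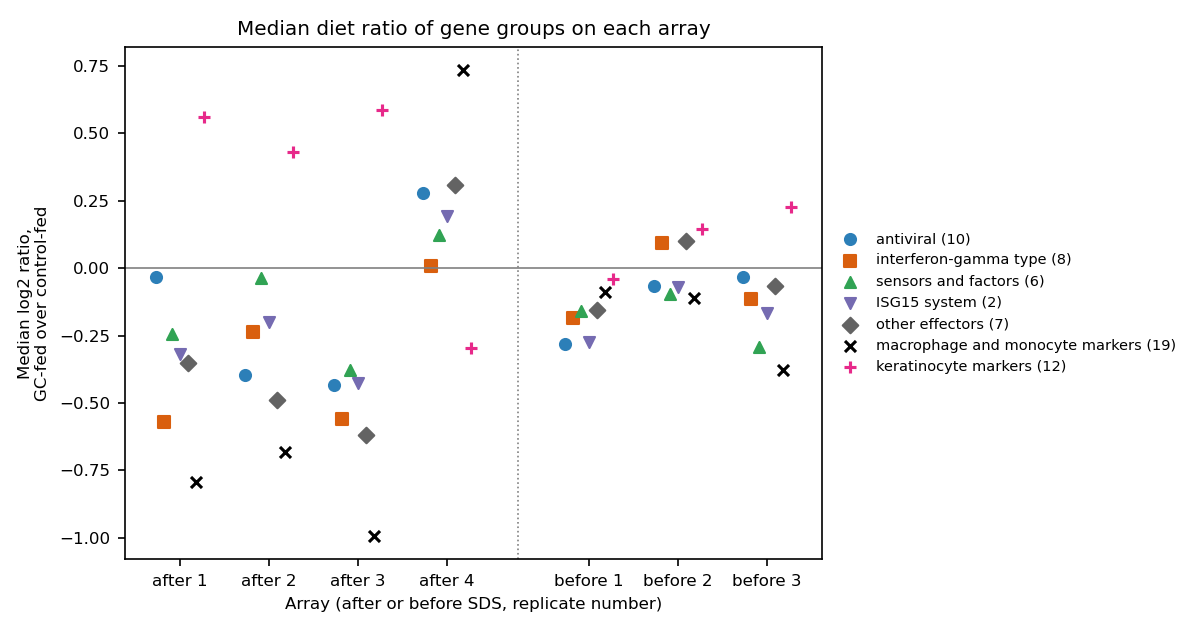
Median log2 diet ratio (GC-fed over control-fed) on each of 7 arrays for the 5 role groups of interferon-induced genes and for the macrophage and keratinocyte marker lists (number of genes in brackets). The role groups and the macrophage markers lie at or above 0 on after-SDS array 4 and below 0 on after-SDS arrays 1 to 3, with the keratinocyte markers on the opposite side.

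The third comparison asks what SDS did to the same genes in each diet. Tap1, the peptide transporter subunit, fell after SDS in both diets, and no other member passed. In GC-fed skin it averaged 8.57 ± 0.21 after SDS and 9.18 ± 0.12 before SDS (SD, n = 4 and 3), a change of -0.65 (SE 0.12) on the log2 scale with an adjusted p of 0.00932. In control-fed skin it averaged 8.77 ± 0.24 after SDS and 9.23 ± 0.14 before SDS, a change of -0.43 (SE 0.12) with an adjusted p of 0.0375. Every after-SDS sample of either diet lay below every before-SDS sample of that diet. In GC-fed skin 1 of 33 members passed, against 13.6% of all genes (7.47% lower), and in control-fed skin 1 of 33, against 15.1% (8.42% lower), a smaller share than among all genes in both diets.

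The other members lay on both sides of 0. In GC-fed skin 14 of 33 were below 0 with a median of 0.03, and in control-fed skin 9 of 33 with a median of 0.17, against 50.3% of all genes below 0 and a median of -0.00 in each diet. The GC-fed side rested on 1 array, with a median of -0.06 and 21 of 33 below 0 without after-SDS array 4, and 0.19 and 7 of 33 without array 3. Psmb9 was at -0.27 (SE 0.09) in GC-fed skin (adjusted p = 0.0733), with every after-SDS sample below every before-SDS sample, and at -0.01 (SE 0.09) in control-fed skin (adjusted p = 0.978). In GC-fed skin 2 of 33 members, Psmb9 and Tap1, were lower without overlap, against 12.3% of all genes, and 0 were higher without overlap, against 11.1%. Isg20 was at 0.30 (SE 0.11) in control-fed skin (adjusted p = 0.0783) and at 0.06 (SE 0.11) in GC-fed skin. Oas3, Irgm1, Psmb8 and Isg20 were higher in control-fed skin after SDS without overlap (4 of 33 members, against 14.5% of all genes), and Tap1 was lower (1 of 33, against 16.3%). Stat2 was at 0.28 (SE 0.12) in GC-fed skin and 0.11 (SE 0.12) in control-fed skin, with adjusted p = 0.148 and 0.55.

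Oas3 was not well above background in any before-SDS sample, and after SDS it was in 2 of 4 samples of each diet. No fold is therefore given for its SDS difference, which did not pass, with adjusted p = 0.127 in GC-fed and 0.128 in control-fed skin. Its measured means were 7.51 after SDS and 7.32 before SDS in GC-fed skin, and 7.57 and 7.39 in control-fed skin. Ifi44 was well above background in 0 of 3 control-fed samples before SDS and is given no fold there. By role group the median SDS change was 0.15 in GC-fed and 0.28 in control-fed skin for the other effectors, 0.09 and 0.07 for the antiviral genes, 0.09 and 0.08 for the sensors and factors, 0.14 and 0.14 for the ISG15 system, and -0.06 and 0.17 for the interferon gamma type. Without after-SDS array 4 these medians were -0.03 and 0.34, -0.01 and 0.11, -0.00 and 0.11, 0.02 and 0.16, and -0.25 and 0.12, in the same order of groups. Probes of Ddx58 and Ifit2 differed in sign in both diets, and those of Ifih1, Irgm1, Mx1 and Parp14 in control-fed skin.

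**Figure D4:**
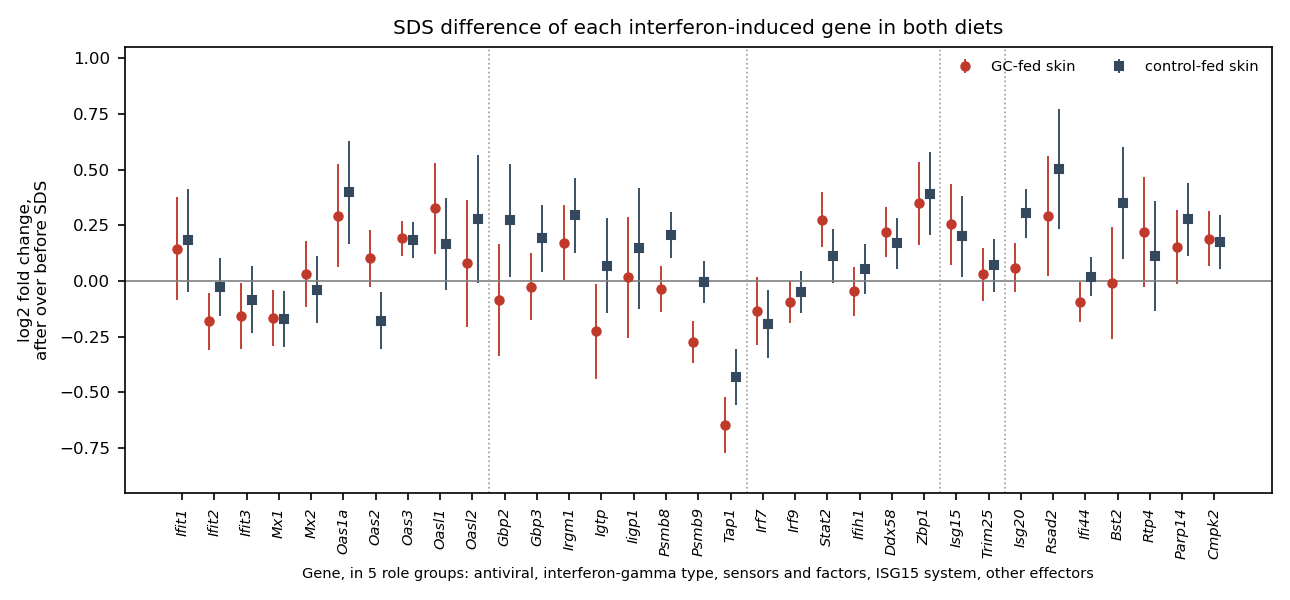
Fitted log2 fold change after over before SDS, with its standard error, for 33 interferon-induced genes in GC-fed skin (red circles) and control-fed skin (dark squares), in 5 role groups divided by dotted lines. Tap1 is the lowest gene in both diets, and most other genes lie within 0.5 of 0.

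Each SDS group was on 1 slide of its own and differed also by 2 days of diet, so SDS, time and slide cannot be told apart in these changes. The call of Tap1 in control-fed skin was lost without after-SDS array 1 or 2 or before-SDS array 1 or 3 (changes of -0.50, -0.34, -0.30 and -0.41), and in GC-fed skin without before-SDS array 3 (-0.57). Without after-SDS array 4, Isg20 at 0.34 (SE 0.09, adjusted p = 0.0251), Rsad2 at 0.75 (SE 0.21, adjusted p = 0.0298) and Parp14 at 0.40 (SE 0.12, adjusted p = 0.0392) also rose in control-fed skin (3 of 33, against 10.6% of all genes) while Tap1 again fell (1 of 33, against 10.7%), and Psmb9 at -0.31 (SE 0.09, adjusted p = 0.0467) fell in GC-fed skin (2 of 33 with Tap1, against 8.7% of all genes).

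The pathway above these genes was measured in part. Of 20 interferon genes 5 were tested, and Ifng, well above background in 5 of 14 channels, was at -0.06 (SE 0.09) for diet after SDS and -0.03 (SE 0.11) before SDS. Ifnb1 was not tested. Of the 14 genes of receptors and JAK-STAT signalling, all tested, 12 were below 0 for diet after SDS with a median of -0.16 and 10 before SDS with a median of -0.05, and 0 passed. Ifnar1 and Ifngr1, chains of the type I and the interferon gamma receptor, were at -0.14 (SE 0.15) and -0.27 (SE 0.14) after SDS, and Irf1, an early interferon gamma target, at -0.17 (SE 0.15). Among 53 further interferon-induced genes, 45 were tested, of which 42 were below 0 after SDS with a median of -0.13 and 32 before SDS with a median of -0.06, again with 0 passing. Of 17 genes of interferon induction, all tested, 14 were below 0 after SDS with a median of -0.06 and 11 before SDS with a median of -0.04, with 0 passing. Without after-SDS array 4, 7 of the 14 receptor and signalling genes fell after SDS and 1 rose, with a median of -0.36, against 3.97% of all genes lower and 1.48% higher. Of the further induced genes 4 of 45 then fell, with a median of -0.27, and of the induction genes 3 of 17, with a median of -0.18. The 5 interferon genes were then at a median of -0.02 with 0 called.

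Of the 14 receptor and signalling genes, 4 rose and 1 fell with SDS in control-fed skin, against 15.1% of all genes in either direction. Named after their values were seen, these included the feedback inhibitor Socs1 at 0.48 (SE 0.11), the interferon gamma receptor chain Ifngr2 at 0.49 (SE 0.10) and Pias1, an inhibitor of STAT signalling, at 0.33 (SE 0.08), which rose, and the interferon lambda receptor Ifnlr1 at -0.57 (SE 0.11), which fell. In GC-fed skin 1 of the 14 passed, Pias1, which rose, at 0.26 (SE 0.08), against 13.6% of all genes in either direction. Of the 45 further induced genes 2 fell in GC-fed skin, Oas1b at -0.46 (SE 0.13) and Parp9 at -0.38 (SE 0.10), against 7.47% of all genes, and 0 passed in control-fed skin, against 15.1%. Without after-SDS array 4, 4 of 45 fell in GC-fed skin (8.7% of all genes), and in control-fed skin 4 rose (10.6%) and 1 fell (10.7%).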

How the data were processed

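Total RNA of dorsal skin (500 ng per labelling, per the labels' protocols) was hybridised on 7 two-colour Agilent arrays, each with 1 GC-fed and 1 control-fed sample, and the dyes were taken from the labels. The deposited scanner files, from Agilent Feature Extraction 9.1.3.1 per the file headers, hold red and green intensity per spot on a linear scale. The authors also deposited a gene-level table of log2 values, of which 11319 of 13084 genes were used as an alternative (29 members); its correlation with the scanner ratios was 0.864 to 0.964.

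Intensities were background-corrected with normexp (offset 50) and normalized by loess within arrays in limma 3.58.1 (R 4.3.3). A probe was kept if it had no missing value and 3 or more of the 14 channels were well above background (25117 probes). Of all probes, 77 had a missing value. The brightest kept probe stood for a gene. Probe names were updated through RefSeq accessions and symbols (GRCm38.p6). Diet effects were fitted to the ratios of all 7 arrays with a dye term, and SDS effects to separate channels after Aquantile scaling. All p-values are limma's, adjusted by Benjamini-Hochberg over 17083 genes, with a threshold of 0.05. They set each change against the spread between these samples. For SDS that spread was within slides, since each SDS group had a slide of its own. Levels are normalized log2 intensities. The steps were tested on simulated data with independent noise per gene and changes of 1 and 2 log2 units. For diet after SDS, 174 of 200 genes changed by 1 unit were called, and 11 unchanged genes. The fitted diet ratios of the members were smaller than 1 unit, and changes of that size were not simulated. No spot was saturated, and 48.5% to 54.5% of green and 58.2% to 62.8% of red spots were well above background; the number of arrays limits the precision.

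Values in every sample are given for the 2 brightest members of each role group and for up to 3 members in each direction with the smallest p in each comparison, 22 in all. The members and lists were chosen with earlier results of these data known. Alternatives were the scanner's processed signals, normalization, probe filter, mean over probes, dye term and the deposited table. Others were each array left out, the sign of after-SDS array 4 and a replicate block. Some results are not reported here.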

Additional observations from a re-analysis of the deposited data

Results flagged for a closer look

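Among 72 groups of 4 after-SDS values (diet ratios, GC-fed levels and control-fed levels), 8 held a sample far from the other 3, with a gap past Dixon's critical value for the share of the group's range. Chance alone gives about 1 in 20 such groups when groups are independent. These were not, since each ratio was made from levels that were also counted and all genes shared the same arrays. The ratios flagged on array 4 came from the array that opposed the others across genes. On after-SDS array 4 the ratio of Igtp was 0.041, of Zbp1 0.22, of Bst2 0.38 and of Parp14 0.42, each above the other 3 arrays, where these genes were below 0. On array 3 the Irf7 ratio was -0.68, with the 3 others between -0.11 and -0.00, and the GC-fed level of Irf7 there, 8.14, was also far below the other 3. The control-fed level of Igtp was 10.37 in replicate 3 and that of Stat2 was 9.82 in replicate 2, both apart from the other control-fed samples.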

How the results depend on the processing

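The number of members past the threshold stayed at 0 for diet before SDS and for the difference of diet effects under every alternative run. With the sign of after-SDS array 4 turned, 13 members passed for diet after SDS and 4 for the average, against 0 each; over single arrays left out the counts ran from 0 to 9 and from 0 to 3. From processed signals 2 members passed for SDS in each diet, Oas3 beside Tap1; over single arrays left out the counts ran from 0 to 2 in GC-fed and from 0 to 4 in control-fed skin. The causes were not tested. No called value changed sign. The median of the members did, without a call, for the difference of diet effects without after-SDS array 3 (0.08, against -0.10) and for SDS in GC-fed skin without after-SDS array 4 (-0.06, against 0.03). The median of the members after SDS lay between -0.32 and -0.20 over other settings and between -0.35 and -0.09 over arrays left out. Over all genes, calls for diet after SDS numbered 930 without array 4 and 1567 with its sign turned (0 otherwise), for the difference 56 and 107, and for the average 234 and 311. SDS calls in GC-fed skin numbered 2322, against 1145 with the mean over probes, 1343 from processed signals and 527 to 2700 with arrays left out, and in control-fed skin 2582, against 1271 with the mean over probes and 142 to 3639 with arrays left out. Same-numbered arrays had ratio deviations correlated at -0.09, -0.04 and 0.19 and level deviations at 0.15, 0.76 and -0.90. These values have no common sign and, with so few pairs, cannot decide whether arrays of the same number were matched. With the replicate block 0 members passed for each diet result and 1 for SDS in each diet, as without it, while SDS calls over all genes fell to 1347 in GC-fed and 1579 in control-fed skin; the within-spot correlation could not be estimated there and that of the fit without the block was used. Mx1, Oas3 and Ifi44, near background, limit what can be said of them.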
